A study of Mus musculus with 3 samples.

Results

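The Notch genes examined in untreated mouse melanocytes were 10 pathway genes picked by name. They are the receptors *Notch1*, *Notch2*, *Notch3* and *Notch4*, the ligands *Dll1*, *Jag1* and *Jag2*, the DNA-binding mediator *Rbpj*, and the target genes *Hes1* and *Hey1*. All 10 of these genes were present among the 22698 Ensembl genes listed for each sample. The samples were 3 RNA-seq libraries of melan-a cells, an immortalized pigmented line that the labels give as C57BL/6J melanocytes from Ink4a-ARF-/- mice, so every library shares the loss of that cell cycle inhibitor locus. The cells received no experimental treatment. Their medium, RPMI 1640, held 10% fetal bovine serum, 200 nM 12-O-tetradecanoylphorbol 13-acetate (TPA, a phorbol ester that activates protein kinase C) and 200 pM cholera toxin, an agent that raises cyclic AMP. The replicates are numbered 1, 3 and 4 and are described as bioreplicates of a single line. There was 1 condition, so the data answer which Notch genes these cells expressed, at what level and in what order, and no treated or mutant group was compared.

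Notch receptors are single-pass membrane proteins that are cut when a ligand of the Delta or Jagged family on a neighbouring cell pulls on them. ADAM proteases make the outer cut and gamma-secretase makes the cut within the membrane, and the freed intracellular domain enters the nucleus and joins RBPJ and a Mastermind coactivator on DNA. Without it, RBPJ is held with corepressors. In the melanocyte lineage, NOTCH1, NOTCH2, RBPJ and HES1 are known for keeping melanoblasts and the melanocyte stem cells of the hair follicle alive, and mice that lose this signal in melanocytes turn gray.

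Of the 10 genes, *Notch1*, *Notch2*, *Rbpj* and *Hes1* (4 of 10) reached at least 1 FPKM in all 3 replicates, and the other 6 stayed below 0.5 FPKM in every replicate. FPKM counts fragments per length of exon after scaling for sequencing depth, so levels can be compared between genes per length. Over all genes, 10011 of 22698 (44.1%) reached 1 FPKM in every replicate. The receptors were present with the proteases that cut them and with the nuclear factors, while all 5 genes of the Delta and Jagged families, *Dll1*, *Dll3*, *Dll4*, *Jag1* and *Jag2*, were below 0.1 FPKM in each library.

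The labelled cell type was checked first. Of 11 melanocyte marker genes, 10 reached 1 FPKM in all replicates, with *Tyrp1*, *Dct* and *Sox10* at means of 3144, 1412 and 468 FPKM. The exception was *Kit*, the receptor for stem cell factor, at 0.67, 0.59 and 0.78 FPKM. The files imply scaled library sizes of 54000000, 47000000 and 66100000 reads in replicates 1, 3 and 4, and replicates 3 and 4 differ in a way that follows the GC content of genes, described with the spread of the Notch genes. Sums of markers of other cells were low. Between replicates they were 0.36 to 0.70 FPKM for 5 keratinocyte genes and 0.01 to 0.03 for 5 endothelial genes. They were 1.60 to 2.34 for 4 mural genes, 1.61 to 1.95 for 6 fibroblast genes and 0.76 to 1.60 for 3 leukocyte genes. Of these genes, the fibroblast marker *Col1a1* alone reached 1 FPKM in all replicates, at 1.51, 1.77 and 1.33 FPKM. The leukocyte sum came from *Cd68* alone, at 1.20, 0.76 and 1.60 FPKM in replicates 1, 3 and 4.

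The start regions of 3 receptors and of *Jag1* are shown to set expressed genes and genes of low level side by side. Each run is the 250 bases before the annotated start, from RefSeq on build GRCm38.p6, read on the gene's own strand, with CpG dinucleotides in capitals. A region was found for 8 of the 10 genes in 10 windows, and there was none for *Hes1* and *Hey1*.
Notch1 (chr2:26503823-26504072, minus strand): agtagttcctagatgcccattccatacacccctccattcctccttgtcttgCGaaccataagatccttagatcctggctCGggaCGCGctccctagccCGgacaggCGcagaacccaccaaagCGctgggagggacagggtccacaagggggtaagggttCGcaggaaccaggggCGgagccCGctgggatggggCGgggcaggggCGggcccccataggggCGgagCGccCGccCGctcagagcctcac
Notch2 (chr3:98013288-98013537, plus strand): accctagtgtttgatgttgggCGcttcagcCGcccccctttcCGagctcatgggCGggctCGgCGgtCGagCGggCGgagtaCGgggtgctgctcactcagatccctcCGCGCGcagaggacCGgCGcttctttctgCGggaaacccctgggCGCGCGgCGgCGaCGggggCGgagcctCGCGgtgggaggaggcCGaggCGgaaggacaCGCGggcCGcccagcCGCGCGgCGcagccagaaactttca
Notch4 (chr17:34564045-34564294, plus strand): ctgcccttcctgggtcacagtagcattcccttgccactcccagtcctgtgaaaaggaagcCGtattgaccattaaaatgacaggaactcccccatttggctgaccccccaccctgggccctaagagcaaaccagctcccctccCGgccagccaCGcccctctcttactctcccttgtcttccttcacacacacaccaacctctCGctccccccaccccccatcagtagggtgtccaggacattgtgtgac
Jag1 (chr2:137116521-137116770, minus strand): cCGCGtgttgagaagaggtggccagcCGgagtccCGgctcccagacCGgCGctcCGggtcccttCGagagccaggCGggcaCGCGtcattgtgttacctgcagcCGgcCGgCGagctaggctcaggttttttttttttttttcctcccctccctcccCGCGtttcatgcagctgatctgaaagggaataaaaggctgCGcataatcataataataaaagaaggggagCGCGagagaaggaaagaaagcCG
The windows of *Notch1* and *Notch2* held 16 and 34 CpGs and that of *Notch3* held 17, whereas that of *Notch4* held 4. Over all 32851 windows of the table the median was 6. The ligands were CpG-rich as well, with 20 for *Jag1*, 21 and 13 for the 2 starts of *Dll1*, and 54 for *Jag2*. A CpG-rich start was thus found at genes on both sides of 1 FPKM.

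The first start of *Rbpj* is shown for the letters TGGGAA, the core that RBPJ itself recognizes, which stand in capitals where they occur on either strand.
Rbpj (chr5:53590096-53590345, plus strand): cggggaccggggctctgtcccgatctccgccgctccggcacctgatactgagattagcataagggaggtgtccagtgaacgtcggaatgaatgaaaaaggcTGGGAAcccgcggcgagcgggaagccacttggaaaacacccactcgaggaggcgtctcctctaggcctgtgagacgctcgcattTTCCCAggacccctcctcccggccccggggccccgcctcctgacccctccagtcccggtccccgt
The core begins 149 bases before the start as TGGGAA and 65 bases before it as TTCCCA, without overlap, and the window of the second start holds the latter copy at 205 bases. No other window of the Notch genes held the core, which is present in 21.6% of all windows. A further 2 motifs were searched on both strands. The letters GCCNNNGGC, a form of the TFAP2 site, occurred in the window of *Jag2* alone, 13 bases before its start, and in 13.7% of all windows. The paper gives a shorter consensus, GCCNNNGG, which was not searched, so the absence from other windows holds for the longer form only. The E-box CACGTG was in none of the 10 and in 6.02% of all windows. These matches describe letters and are not evidence of binding.

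*Notch1* was the most abundant of the 10 genes. It lies on the minus strand of chromosome 2 from 26313423 to 26372183 (mm9) and was at 35.6, 36.3 and 28.2 FPKM in replicates 1, 3 and 4, with a mean of 33.4 ± 4.49 FPKM (SD, n = 3). Replicate 4 was the lowest of the 3, and all were above every value of the other 9 genes. The log2 ratio of replicate 3 over replicate 4 was 0.36, and 0.31 in genes of like GC content. Its mean ranked 2050 of 22698, with 91.0% of genes lower.

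*Notch2*, on the plus strand of chromosome 3 from 97817461 to 97954290, was at 7.77, 7.13 and 6.87 FPKM (mean 7.26 ± 0.463, SD, n = 3). The replicates lay close together, and its mean was at rank 6337. Within a library, *Notch1* exceeded *Notch2* by 4.58, 5.09 and 4.10 times, in 3 of 3 replicates. An exact two-sided permutation test that flips the sign of the log2 ratio in each library gave p = 0.25, which is the smallest value 3 libraries allow, here and in all tests of this kind that follow.

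*Notch3*, a receptor known best from the smooth muscle of vessel walls, lies on chromosome 17 from 32257765 to 32303825 (minus strand). It was at 0.39, 0.42 and 0.25 FPKM, a mean of 0.353 ± 0.0907 FPKM (SD, n = 3). *Notch4*, a receptor of endothelial cells, lies on the plus strand of the same chromosome from 34701213 to 34725448. Its values were 0.14, 0.25 and 0.11 FPKM, a mean of 0.167 ± 0.0737 FPKM (SD, n = 3). Both were far below *Notch1* and *Notch2* in every library without being absent, since these values stand for about 169, 159 and 133 reads on *Notch3* and 61, 95 and 59 on *Notch4*. In bulk RNA, few cells with much RNA and many cells with little cannot be told apart. The endothelial markers *Tek* and *Emcn* were listed at 0 in all libraries, and *Pecam1*, *Cdh5* and *Kdr* were at or below 0.02 FPKM. Of the mural markers, *Pdgfrb* and *Rgs5* were at or below 0.09 FPKM and *Acta2* and *Cspg4* were between 0.73 and 1.15 FPKM. Whether mural cells had a part in the *Notch3* level was not tested.

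Of the summed FPKM of the 4 receptors, *Notch1* made up 81.1%, 82.3% and 79.6% in replicates 1, 3 and 4. The share of *Notch2* was 17.7%, 16.2% and 19.4%. *Notch3* and *Notch4* made up 0.849 ± 0.128% and 0.399 ± 0.146% (SD, n = 3). The composition varied little, with SDs of 1.36 percentage points for *Notch1* and 1.61 for *Notch2* (n = 3), although the summed level itself was 43.9 and 44.1 FPKM in replicates 1 and 3 and 35.4 in replicate 4, in the direction of genes of like GC content. Gene length mattered for this gene. Division by the longest annotated transcript (9488 bases for *Notch1*, against 14232 bases of joined exons) in place of the joined exons raised the mean of *Notch1* to 50.1 FPKM and its share to 86.4%.

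**Figure D1:**
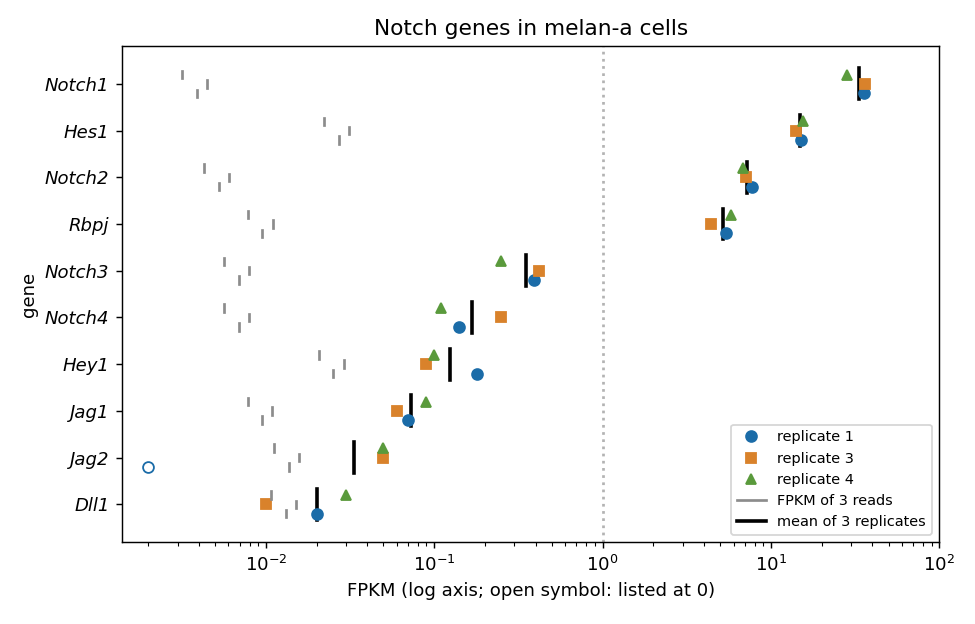
FPKM (log axis) of the 10 Notch genes in replicates 1, 3 and 4 (circles, squares, triangles), ordered by mean (black bar); gray ticks mark the FPKM of 3 reads in each replicate and the dotted line 1 FPKM. Notch1, Hes1, Notch2 and Rbpj lie between 4.42 and 36.3 FPKM, and the other 6 genes lie at or below 0.42, with Jag2 listed at 0 in replicate 1 (open circle).

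The ligands were near the limit of the sequencing. *Jag1*, on chromosome 2 from 136907192 to 136942380 (minus strand), was at 0.07, 0.06 and 0.09 FPKM, which is about 22, 16 and 35 reads. *Jag2*, on chromosome 12 from 114146801 to 114167706 (minus strand), was listed at 0 in replicate 1 and at 0.05 FPKM in replicates 3 and 4, or about 10 and 13 reads. *Dll1*, on chromosome 17 from 15504318 to 15513836 (minus strand), was at 0.02, 0.01 and 0.03 FPKM, or about 5, 2 and 8 reads. *Jag1* was thus above the value of 3 reads in all libraries, while *Jag2* and *Dll1* each fell short of it in 1 library. Rounding to 2 decimals moves these read numbers by up to 1.57 for *Jag1*, 1.09 for *Jag2* and 1.14 for *Dll1* in replicate 1.

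For *Jag2*, a value listed at 0 after rounding can still stand for 1 read in replicate 1. Its 95% exact counting intervals in replicates 3 and 4 were 0.0252 to 0.0965 and 0.0258 to 0.0830 FPKM. Taken as 0 reads, replicate 1 had an interval of 0 to 0.0169 FPKM, which lay below both. For 1 read no interval was computed, so whether replicate 1 lay below the others could not be settled at this depth. These intervals cover counting error only. For *Dll1* the intervals overlapped between all replicates. In all, 8 of the 10 Notch genes had at least 3 reads in each library, against 57.7% of the 22324 genes with an exon length.

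**Figure D2:**
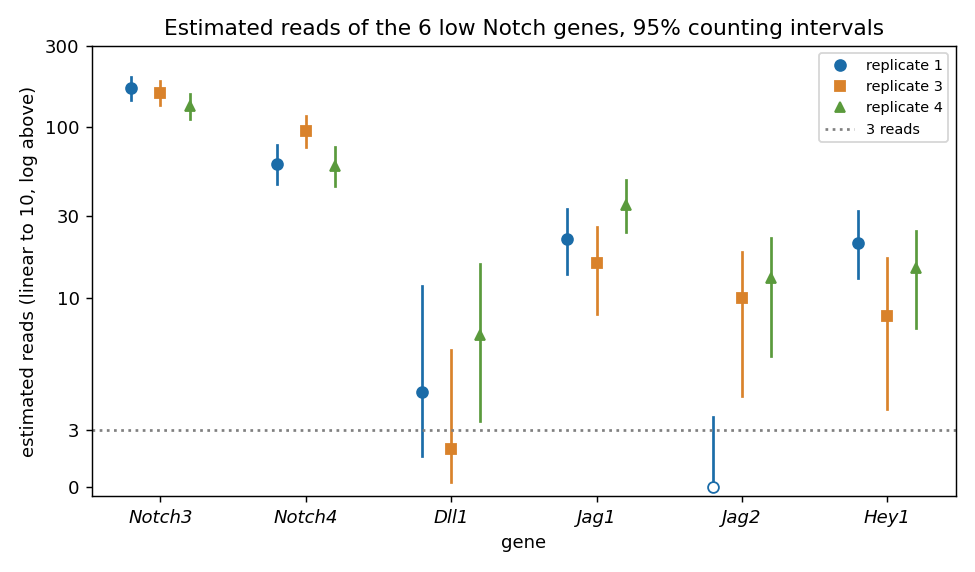
Estimated reads (linear to 10, log above) on the 6 Notch genes below 1 FPKM in replicates 1, 3 and 4, with exact 95% counting intervals as lines and a dotted line at 3 reads. Notch3 and Notch4 stand at 59 to 169 reads, Jag1, Jag2, Hey1 and Dll1 at 35 or fewer, and Jag2 in replicate 1 (open circle) is listed at 0.

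Other ligands were equally low with 1 exception. *Dll3*, which acts mainly inside the cell as an inhibitor, was at 0.04, 0.02 and 0.03 FPKM, and *Dll4*, the Delta ligand of vessel sprouting, was listed at 0 in all replicates. The noncanonical ligands *Dlk1* and *Dner* were also listed at 0. *Dlk2*, a Delta-like protein without the receptor-activating DSL domain, was at 1.18, 1.57 and 0.97 FPKM. It was therefore the highest of the 8 ligand genes examined, and it missed the limit of 1 FPKM in replicate 4 only. Summed over the 5 Delta and Jagged genes, *Dll3* included, the level was 0.13, 0.14 and 0.20 FPKM, of which *Dll1*, *Jag1* and *Jag2* gave 0.09, 0.12 and 0.17. The summed receptors exceeded the sum of the 5 genes by 338, 315 and 177 times (exact permutation test, two-sided, p = 0.25).

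The genes that prepare a receptor for its ligand were expressed, with 1 gap. Of 5 genes that add sugars to the receptor, 4 reached 1 FPKM in all replicates, led by *Rfng* at 18.6 ± 3.09 FPKM and *Poglut1*, an O-glucosyltransferase, at 17.1 ± 0.787 (SD, n = 3). The Fringe enzymes, which lengthen O-fucose and so change how a receptor answers Delta and Jagged ligands, differed among themselves. *Lfng* was at 4.90, 6.04 and 4.65 FPKM, below *Rfng* in 3 of 3 replicates, and *Mfng* was listed at 0 in all. All 10 genes of receptor cleavage reached 1 FPKM. They were led by *Adam10*, the protease of the ligand-dependent outer cut, at 120 ± 22.9 FPKM, and *Ncstn*, the substrate-binding subunit of gamma-secretase, at 91.3 ± 3.65 (SD, n = 3). The lowest were *Aph1c* and *Aph1b*, alternative subunits of the same complex, at 3.26 and 4.42 FPKM, whose near-identical copies make the split of reads between them uncertain.

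Machinery of the ligand-sending cell was present although the Delta and Jagged genes were low. Of 6 genes for ligand endocytosis, 5 reached 1 FPKM in all replicates, with the epsins *Epn1* and *Epn2* highest. *Epn1* was at 77.9, 91.0 and 51.6 FPKM, with 62.9% GC in its exons, and *Epn2* at 19.3 ± 1.39 FPKM (SD, n = 3). The ubiquitin ligase gene *Neurl1a* was lowest, at 0.96, 1.18 and 0.64 FPKM, followed by *Neurl1b* at 2.48 ± 0.313 FPKM (SD, n = 3). These proteins also serve other cargo. Of 8 genes of receptor turnover, 7 reached 1 FPKM. *Dtx3* and *Numbl*, a relative of the Notch inhibitor Numb, were highest at 23.9 and 16.6 FPKM, and *Fbxw7*, which marks the intracellular domain for destruction, stood at 1.91 ± 0.0757 FPKM (SD, n = 3). *Dtx1*, itself a known Notch target in lymphocytes, was lowest at 0.07, 0.05 and 0.03 FPKM.

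*Rbpj*, on the plus strand of chromosome 5 from 53947018 to 54048684, was at 5.39, 4.42 and 5.77 FPKM (mean 5.19 ± 0.696, SD, n = 3). Replicate 3 was the lowest, the reverse of *Notch1*, and the log2 ratio of replicate 3 over replicate 4 was -0.38, against -0.32 in genes of like GC content. Reads shared with processed copies of *Rbpj* were not examined. Its paralog *Rbpjl*, known from the pancreas, was at 0.01, 0.04 and 0.01 FPKM. *Notch1* exceeded *Rbpj* by 6.60, 8.21 and 4.89 times within the libraries.

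Partners of RBPJ were expressed on both sides of its switch. All 8 coactivator genes reached 1 FPKM in every replicate, from *Crebbp*, an acetyltransferase, at 4.56 ± 1.13 FPKM to *Kat2a*, another, at 39.8 ± 8.81 (SD, n = 3). *Maml2*, a Mastermind gene, was the second lowest at 6.89 ± 1.55 and *Snw1* the second highest at 33.1 ± 1.30 FPKM (SD, n = 3). Of 12 corepressor genes, 11 did so, with *Ctbp1* highest at 68.2 ± 10.9 FPKM (SD, n = 3). *Cir1*, a corepressor named for binding RBPJ, was lowest at 1.02, 0.96 and 1.43 FPKM, and *Tle4*, a Groucho protein that works with HES factors, stood at 1.57 ± 0.170 FPKM (SD, n = 3). The medians of the lists were 8.48 FPKM for coactivators and 8.17 for corepressors, against 0.277 FPKM over all genes of the files. Over all 63 genes of the wider pathway, 46 (73.0%) reached 1 FPKM in every replicate, against 44.1% of all genes. No test was made of this share.

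**Figure D3:**
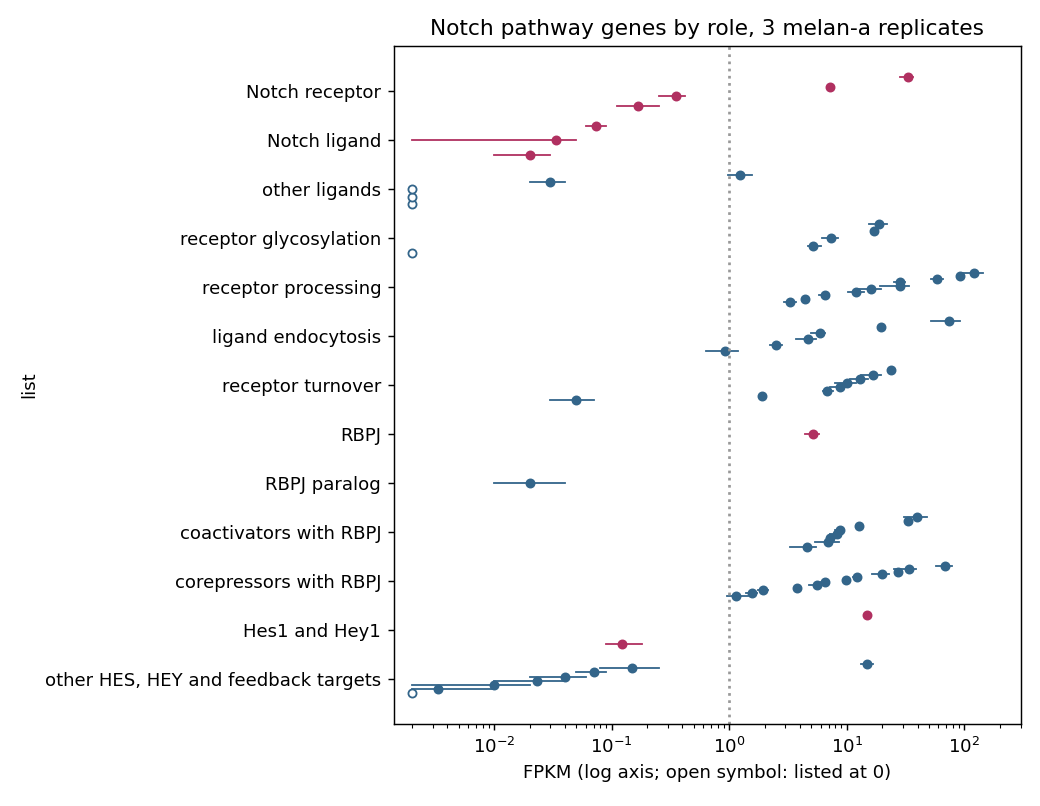
Mean FPKM (points, log axis) and range from the lowest to the highest of the 3 replicates (lines) for the 10 Notch genes (red) and 63 further pathway genes (blue), grouped by role; the dotted line is 1 FPKM, open points are listed at 0, and a line that reaches the left edge of the points includes a replicate at 0. Processing, coactivator and corepressor genes lie around or right of 1 FPKM, and all ligands but Dlk2, with most targets, lie left of it.

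Among the targets, *Hes1* was above 1 FPKM and *Hey1* below it. Both encode basic helix-loop-helix repressors that Notch induces in many tissues. *Hes1*, on the plus strand of chromosome 16 from 30064470 to 30067882, was at 15.11, 14.09 and 15.56 FPKM (mean 14.9 ± 0.753, SD, n = 3). Its coefficient of variation of 5.05% was the smallest of the 4 expressed Notch genes, but became 10.5%, the largest of the 4, when replicates were centred on genes of like GC content. *Hey1*, on the minus strand of chromosome 3 from 8663362 to 8667039, was at 0.18, 0.09 and 0.10 FPKM, about 21, 9 and 15 reads. *Hes1* exceeded it by 83.9, 157 and 156 times within the libraries (exact permutation test, two-sided, p = 0.25).

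Of the other 8 target and feedback genes, *Hes6* alone reached 1 FPKM, at 14.74, 16.57 and 13.19 FPKM (mean 14.8 ± 1.69, SD, n = 3). HES6 is known as an antagonist of HES1 rather than as a Notch target. *Hes1* and *Hes6* could not be ordered, with ratios of 1.03, 0.850 and 1.18 (exact permutation test, two-sided, p = 0.75). The remaining genes were low. *Nrarp*, a feedback inhibitor and a common readout of Notch activity, was at 0.25, 0.12 and 0.08 FPKM, *Heyl* at 0.09, 0.07 and 0.05, and *Hey2* at 0.02, 0.06 and 0.04. *Hes7*, *Hes3* and *Hes2* did not exceed 0.04 FPKM, and *Hes5*, the classic target in neural progenitors, was listed at 0 in all. Summed over the 9 HES and HEY genes, the level was 30.17, 30.90 and 29.00 FPKM. *Hes1* made up 49.8 ± 4.04% of it and *Hes6* 49.3 ± 4.09% (SD, n = 3), and *Hey1* 0.411 ± 0.163%.

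In order of their means the Notch genes ran *Notch1*, *Hes1*, *Notch2*, *Rbpj*, *Notch3*, *Notch4*, *Hey1*, *Jag1*, *Jag2* and *Dll1*. Among the first 5 of them, the ranges of neighbours did not overlap. The steps, on the log2(FPKM + 0.1) scale, were 1.15 ± 0.26 from *Notch1* to *Hes1*, 1.03 ± 0.12 from *Hes1* to *Notch2*, 0.48 ± 0.22 from *Notch2* to *Rbpj* and 3.56 ± 0.48 from *Rbpj* to *Notch3* (SD, n = 3), each in the same direction in 3 of 3 libraries. Among the 9 neighbouring pairs, the sign-flip permutation test gave adjusted p = 0.32 (exact, two-sided, Benjamini-Hochberg over 9) for the 7 pairs ordered alike in all libraries, so no step can pass at this n. Below *Notch3* the order was loose. The ranges of *Notch3* and *Notch4* met at 0.25 FPKM, those of *Notch4* and *Hey1* and of *Hey1* and *Jag1* overlapped, and *Jag2* overlapped *Dll1*. The pairs *Notch4* and *Hey1*, and *Jag2* and *Dll1*, were ordered the same way in 2 of 3 libraries only (adjusted p = 0.75, exact permutation test). *Jag1* lay above *Jag2* in all libraries, but their counting intervals overlapped in replicates 3 and 4.

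The spread of the expressed Notch genes between replicates was of the usual size, with coefficients of variation of 5.05% to 13.5% against a median of 11.4% over all expressed genes. Of these 4, *Notch1* and *Notch2* were higher in replicate 3 than in replicate 4, against 51.3% of all expressed genes, and *Notch3* and *Notch4* were higher as well. The difference between replicates 3 and 4 went with base composition for *Notch1* (55.4% GC in its exons) and *Rbpj* (44.8% GC), as given above with each. *Hes1*, with 52.4% GC, went against it, since its log2 ratio of replicate 3 over replicate 4 was -0.14 and that of genes of like GC content 0.16. *Notch2*, with 53.6% GC, had a ratio of 0.05, and genes of like GC content 0.23. When each replicate was centred on genes of like GC content, the coefficient of variation became 5.97% for *Notch1* and 4.36% for *Rbpj* from 13.5% and 13.4%. For *Hes1* and *Notch2* it grew, from 5.05% to 10.5% and from 6.38% to 7.98%. For *Notch3*, with 59.6% GC, it became 8.24%, from 25.7%, and for *Notch4*, with 59.7% GC, 26.1%, from 44.2%. The replicate pattern of *Notch1*, *Rbpj* and *Notch3* was therefore shared with genes of like composition, and what produced it was not tested.

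**Figure D4:**
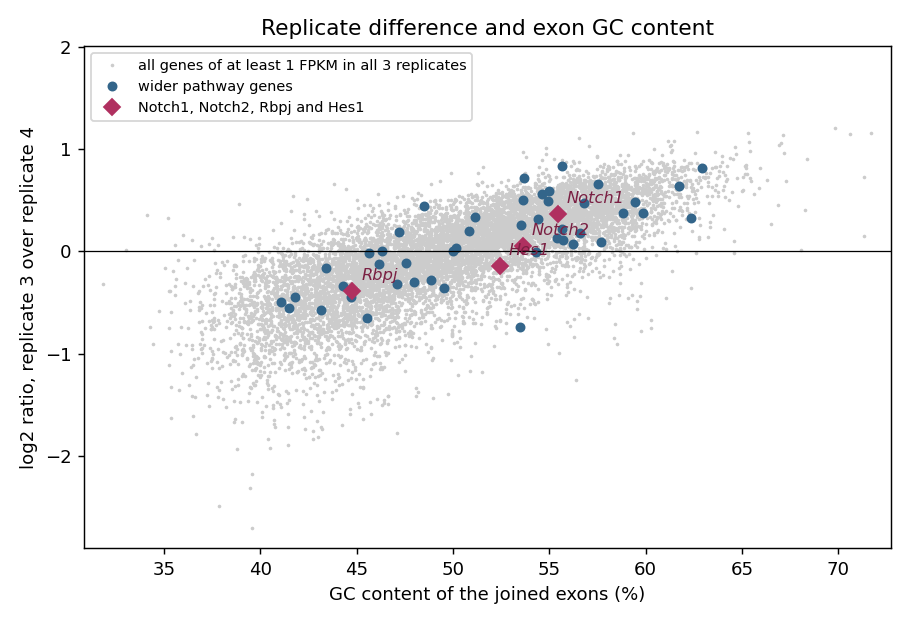
Log2 ratio of replicate 3 over replicate 4 against the GC content of the joined exons for all expressed genes (gray), wider pathway genes (blue) and the 4 expressed Notch genes (red). The ratio climbs with GC content across genes, with Rbpj at 44.8% GC and -0.38 and Notch1 at 55.4% GC and 0.36.

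Exons of *Notch1*, *Notch3* and *Dll1* overlap annotated noncoding RNAs on the opposite strand, over 7.5% and 2.91% (2 genes), 6.07% and 20.5% of their exon bases. The libraries kept the strand, but whether the counting used it is not given in the sources used here, so reads of both partners may be mixed in those parts.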

How the data were processed

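RNA-seq was analysed for 3 melan-a replicates. The authors prepared stranded libraries from mRNA, trimmed the 10 bases at the 5' end of each read, aligned to mm9 with STAR 2.3.0e, discarded reads from ribosomal RNA and counted the rest per Ensembl gene with HTSeq 0.5.3p3 (versions from the submitters' processing notes). The deposited values are FPKM with 2 decimals, which the authors' file naming marks as TMM-scaled, a library scaling offered by edgeR, which the notes also name. How counts became FPKM and which gene lengths were used are not given in the sources used here.

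FPKM values are not counts, so no count model was fitted. Symbols, positions, joined exon lengths and GC contents came from an mm9 annotation (GENCODE vM1), which held 22324 of the 22698 genes, and all 110 listed genes were matched. This annotation is of an earlier Ensembl release than the one the authors counted on, so exon lengths, and with them the estimated reads and intervals, can differ from theirs. The scaled library size of each replicate was the size at which low values of short genes with 1 transcript came closest to whole reads, with a mean distance of 0.0510, 0.0480 and 0.0683 reads over 148, 145 and 177 genes. For genes with several transcripts, joined exons came closer to whole reads than the longest transcript did (0.158, 0.135 and 0.116 against 0.196, 0.263 and 0.236 reads). This comparison rested on only 20, 33 and 8 genes, and its distances were larger than those of genes with 1 transcript. Estimated reads are FPKM times joined exon length times this size. The floor was 3 reads. Intervals are exact Poisson intervals at 95%.

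A gene was called expressed at 1 FPKM or more in all 3 replicates. Neighbouring genes were compared by exact sign-flip permutation tests on log2(FPKM + 0.1) ratios within libraries. With 3 libraries these p-values reflect mainly whether the libraries agree in direction, not the size of their spread, and they cover these replicates only. For the GC alternative, the median log2 deviation of genes in 20 groups of like GC content was taken off each replicate. Of each wider list the 2 highest and 2 lowest genes were named, and all other ligands and targets, except for items not reported here. The members and lists were chosen with earlier results of these data known. The steps were tested on simulated data. Python 3.11.15, numpy 2.4.6, pandas 2.3.3, scipy 1.17.1 and matplotlib 3.10.9 were used.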

Additional observations from a re-analysis of the deposited data

How the results depend on the processing

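The numbers of expressed genes, 4 of 10 Notch genes and 46 of 63 wider pathway genes, became 4 and 49 at a minimum of 0.5 FPKM, 4 and 41 at 3 FPKM, and 4 and 48 with a mean of at least 1 FPKM. The share of all genes was taken only at 1 FPKM in all replicates, where it was 44.1%, so the other counts have no such share beside them. Leaving out 1 replicate at a time gave 4 Notch genes each time and 46 to 47 of the wider list. Of 221 values recomputed under the alternatives, 214 kept their direction and moved by less than the spread between replicates or stayed on the same side of the test. Many of these outcomes could not have differed. With 3 replicates, a median, or a mean with 1 replicate left out, cannot shift by the SD. Shares do not change when a library is rescaled, and no pair could pass the test. The number is therefore no measure of robustness. The order of 2 pairs turned without replicate 3. The log2 ratio of *Notch4* over *Hey1*, 0.24 with all replicates, ranged from -0.076 to 0.48 with 1 replicate left out, and that of *Jag2* over *Dll1*, 0.13, ranged from -0.028 to 0.33. The other 5 values moved with the gene length, an alternative added after seeing the data. With the longest transcript, *Notch1* rose to 50.1 FPKM and *Hes1* to 20.7, and the receptor shares became 86.4% for *Notch1*, 12.6% for *Notch2* and 0.603% for *Notch3*. Steps at the low end depended on the pseudocount. The log2 ratio of *Rbpj* over *Notch3* was 2.19 with a pseudocount of 1 and 3.86 with 0.01, and that of *Jag1* over *Jag2* was 0.06 and 1.32. The depth limits *Dll1* and *Jag2*, which had 13 reads or fewer in each library. No paired analysis was possible between groups because there is 1 group.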
